A study of Mus musculus with 8 samples.

Results

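The genes described here answer to low oxygen or carry out glycolysis. They comprise 40 listed genes: the hypoxia-inducible transcription factor subunits Hif1a and Epas1, known targets of these factors, and the enzymes and transporters of glucose breakdown. Membership was by name, and a gene with several probe sets of its own was read from the brightest of them on average. By this rule 35 of the 40 genes were measured, among 22180 genes in all. Aldoa, Bnip3l and Ankrd37 appeared only on probe sets that name several genes, and Gpi1 and Eno1 were not analysed here.

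The study profiled whole lungs of mouse embryos, taken on embryonic day 14.5, on 1-colour Affymetrix arrays. The 4 mutant embryos were Shh-cre:Ezh2-flox/flox and came from 2 litters, with mutants 1 and 2 in litter 3 and mutants 3 and 4 in litter 4. The 4 controls were Shh-cre embryos with no floxed Ezh2, with controls 1 and 2 in litter 1 and controls 3 and 4 in litter 2. Litters are numbered here from the pairs of littermates that the study names. All 8 embryos carried Shh-cre on a mixed C57BL/6 x 129S6 background. Ezh2 encodes the methyltransferase of the Polycomb repressive complex that marks histone H3 on silenced genes. Shh-cre acts in the lung epithelium, so mesenchyme, vessels and blood in the same sample keep Ezh2. No litter held both genotypes, and the p-values between genotypes treat litter as a random block.

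Values are log2 array intensities, and 1 log2 unit is a doubling. The Ezh2 signal was 11.80, 11.80, 11.75 and 11.77 in mutants 1 to 4, against 11.84, 11.93, 11.83 and 11.89 in controls 1 to 4. All mutants lay below all controls, as in 3.6% of all genes, by a log2 change of −0.09 ± 0.05 (SE, limma, adjusted p = 0.652). Other cell types of the lung keep the gene, and their part in the size of this change was not tested. The array medians ran between 7.048 and 7.118, and the correlation between arrays was 0.9859 to 0.9951. Xist, the RNA of the inactive X chromosome, was at 6.37 to 6.74 in mutant 3 and in controls 1 and 2, and at 12.6 or above in the other 5 embryos. Litter 1 therefore held both controls with low Xist, so litter and sex cannot be told apart among the controls. The lung regulator Nkx2-1, the surfactant gene Sftpc and the mesenchymal gene Foxf1 were bright in every embryo, with the lowest value of the 3 at 10.63 (Nkx2-1 in mutant 1). With 4 arrays a group, the number of arrays limits the precision, and in whole lung a change in the number of cells of a type cannot be told apart from a change in RNA per cell.

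When oxygen is plentiful, prolyl hydroxylases such as those encoded by Egln1 and Egln3 mark the HIF alpha subunits for destruction. When oxygen falls, the subunits persist, pair with a constitutive partner and bind short DNA elements near their targets. The targets raise glucose uptake and glycolysis, turn pyruvate to lactate, recruit vessels and remove mitochondria. The fetal lung develops at low oxygen, and this system takes part in the growth of its vessels and airways.

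Most of these genes did not pass the test between mutants and controls. Stc1 and Slc2a3 rose, at 2 of 35 measured members, and no member fell. Over all genes, 134 rose (0.604%) and 55 fell (0.248%) at a Benjamini-Hochberg adjusted p under 0.05 in limma. With the littermates averaged, neither Stc1 nor Slc2a3 passed. Stc1 and Slc2a3 were the only members whose mutants all lay above all controls, which is read from the same values as the test. They made up 5.71% of the members, close to the 4.48% of all genes with this pattern. No member had all mutants below all controls, against 3.6% of all genes. The median log2 change of the members was 0.03, with a range of −0.15 to 0.69, and the median over all genes was 0.01. At an unadjusted p under 0.05 in limma, 4 of the 35 members were higher and 0 lower, against 1244 and 945 of all 22180 genes.

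Among the secreted ligands, Stc1 encodes stanniocalcin, a secreted glycoprotein first known as a calcium regulator of fish. Stc1 was at 8.34, 8.72, 8.43 and 8.56 in mutants 1 to 4, against 7.68, 7.58, 8.06 and 7.97 in controls 1 to 4. Every mutant stood above every control, and within the controls litter 2 stood above litter 1. The log2 change was 0.69 ± 0.12 (SE), a 1.61-fold rise (limma, adjusted p = 0.0257). The call was held in 16 of 24 other settings. Over the 24 the log2 change ran between 0.50 and 0.88 and the adjusted p between 0.0053 and 0.13. Not all 24 put the call to a test. Stc1 has 1 probe set, so the settings of probe set choice reread the same values, and the threshold of 0.10 reuses the main fit. Leaving out mutant 4 gave an adjusted p of 0.10, and leaving out control 1, 2 or 4 gave 0.0548, 0.0548 and 0.0804. In fits that left out litter 1, 3 or 4 and also dropped the litter block it was 0.0886, 0.067 and 0.13, and with the littermates averaged 0.073.

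Slc2a3 encodes a glucose transporter with high affinity for glucose. It was at 8.47, 8.46, 8.37 and 8.08 in mutants 1 to 4, against 7.58, 7.64, 8.02 and 7.77 in controls 1 to 4. The gap between the groups was small, with mutant 4 at 8.08 just above control 3 at 8.02. The log2 change was 0.60 ± 0.12 (SE), a 1.51-fold rise (limma, adjusted p = 0.0428). The call was held in 13 of 24 other settings, with a log2 change between 0.45 and 0.74 and an adjusted p between 0.0187 and 0.182. Slc2a3 also has 1 probe set, so the settings of probe set choice and the threshold of 0.10 again reread the same values. The call was lost without mutant 1, 2 or 3 (adjusted p 0.109, 0.0709 and 0.0875) and without control 1, 2 or 4 (0.0811, 0.105 and 0.158). In fits that left out litter 1 or 3 and also dropped the litter block it was 0.182 and 0.141, with the littermates averaged 0.109, and with the arrays centred 0.0781. The call was also lost with the embryo number as a replicate block (0.0664), where Stc1 stayed past the threshold (0.0438).

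Slc2a1, the widely expressed glucose transporter of the same family, showed no such difference. It was at 11.13, 11.11, 11.10 and 11.07 in mutants 1 to 4, against 10.74, 10.97, 11.28 and 11.30 in controls 1 to 4. The mutants lay within a narrow band that the controls spanned on both sides, with litter 2 above and litter 1 below. The log2 change was 0.03 ± 0.11 (SE, limma, adjusted p = 0.962).

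**Figure D1:**
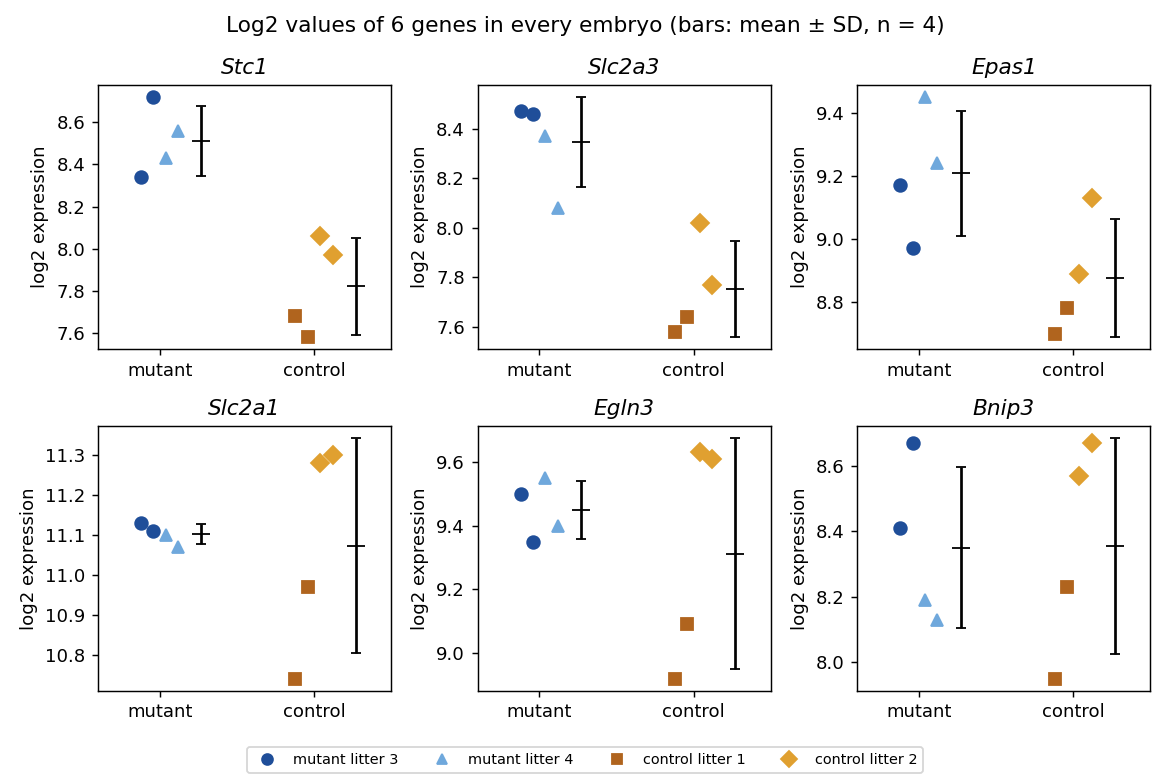
Log2 array values (y axis) of Stc1, Slc2a3, Epas1, Slc2a1, Egln3 and Bnip3 in each of the 4 mutant and 4 control embryos, with littermates marked by the same symbol and the group mean as a line. For Stc1 and Slc2a3 all mutants lie above all controls, while for Slc2a1 and Egln3 the 2 control litters lie on either side of the mutants, and for Bnip3 the genotypes overlap widely.

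Of the transcription factors, Epas1 encodes the HIF alpha subunit that is prominent in endothelium. It was at 9.17, 8.97, 9.45 and 9.24 in mutants 1 to 4, against 8.70, 8.78, 8.89 and 9.13 in controls 1 to 4. Control 4 lay above mutant 2, so the groups overlapped, and the log2 change of 0.33 ± 0.12 (SE) did not pass (limma, adjusted p = 0.359). Hif1a, the broadly expressed subunit that is regulated mainly through protein stability, had the narrowest range of all measured members. It was at 10.93, 10.99, 10.93 and 10.87 in mutants, against 10.97, 11.04, 10.97 and 11.01 in controls, a log2 change of −0.07 ± 0.06 (SE, limma, adjusted p = 0.761). A dimmer second Hif1a probe set gave 0.12, the opposite sign.

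The 2 oxygen-sensing hydroxylases are themselves HIF targets, and their values split the control litters. Egln1 was at 9.91, 9.96, 9.80 and 9.88 in mutants 1 to 4, against 9.91, 9.94, 10.19 and 10.09 in controls 1 to 4. Egln3 was at 9.50, 9.35, 9.55 and 9.40 in mutants 1 to 4, against 8.92, 9.09, 9.63 and 9.61 in controls 1 to 4. Litter 2 stood above litter 1 for both genes, by 0.21 for Egln1 and 0.61 for Egln3. The log2 change between genotypes was −0.15 ± 0.08 for Egln1 (SE, limma, adjusted p = 0.581) and 0.14 ± 0.15 for Egln3 (adjusted p = 0.825).

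The other secreted ligands did not pass. Vegfa, the main growth factor of vessels, was at 10.41, 10.67, 10.44 and 10.37 in mutants 1 to 4, against 10.24, 10.23, 10.46 and 10.72 in controls 1 to 4. Its log2 change was 0.06 ± 0.12 (SE, limma, adjusted p = 0.92), with the controls covering the whole range of the mutants. Adm, which encodes the vasodilator peptide adrenomedullin, was at 6.38, 6.85, 6.13 and 6.42 in mutants, against 6.40, 6.30, 6.21 and 6.01 in controls. Mutant 2 was high and the rest overlapped, for a log2 change of 0.21 ± 0.15 (SE, limma, adjusted p = 0.721). Adm ran against most members between the control litters, with litter 2 lower than litter 1 by a difference of −0.24. Adm was dim, and in mutant 3 and controls 3 and 4 it lay below 6.232, the limit used here for dim genes. Stc2, a relative of Stc1, had a log2 change of −0.13 ± 0.07 (SE, limma, adjusted p = 0.572), the opposite sign to that of Stc1.

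The 9 measured glycolytic enzymes were Hk1 and Hk2, which phosphorylate glucose, Pfkl and Pfkp, which commit it to glycolysis, and Aldoc, Tpi1, Pgk1, Pgam1 and Pkm further along the path. Their log2 changes between genotypes lay between −0.08 and 0.09, with 5 of 9 above 0 and none past the threshold. Between the control litters all 9 were higher in litter 2 than in litter 1, by 0.10 to 0.38, where 52.7% of all genes were higher. Pgk1, the first ATP-forming enzyme of the pathway, was at 11.98, 12.07, 11.93 and 11.93 in mutants 1 to 4, against 11.83, 11.92, 12.07 and 12.01 in controls 1 to 4. Its log2 change was 0.02 ± 0.07 (SE, limma, adjusted p = 0.966). The glycolysis regulators Pfkfb3 and Pfkfb4 set the level of a fructose bisphosphate that activates the enzymes of Pfkl and Pfkp and is not their product. These regulators did not follow the enzymes and were not higher in litter 2. Pfkfb3 was at 8.37, 8.74, 8.02 and 8.23 in mutants, against 8.45, 8.42, 8.31 and 8.42 in controls, where the spread was mostly among the mutants.

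Ldha, Pdk1 and Slc16a3 handle pyruvate and lactate: Ldha reduces pyruvate to lactate, Pdk1 restrains its entry into the citrate cycle, and Slc16a3 exports lactate. Ldha was at 9.57, 9.64, 9.44 and 9.31 in mutants 1 to 4, against 9.26, 9.44, 9.48 and 9.50 in controls 1 to 4. All 3 genes were higher in litter 2 than in litter 1, by 0.14 to 0.36, and lower in litter 4 than in litter 3, with differences of −0.31 to −0.10. Their changes between genotypes were −0.13 to 0.12, and none passed.

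Bnip3 encodes a mitochondrial receptor that promotes mitophagy. It was at 8.41, 8.67, 8.19 and 8.13 in mutants 1 to 4, against 7.95, 8.23, 8.57 and 8.67 in controls 1 to 4. The litters of a genotype did not overlap, with litter 2 above litter 1 by 0.53 and litter 4 below litter 3 by a difference of −0.38, while the 2 genotype means were close (limma, adjusted p = 0.998). Fam162a, another mitochondrial member, was higher in litter 2 than in litter 1 by 0.13 and lower in litter 4 than in litter 3, a difference of −0.25.

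The carbonic anhydrases Car9 and Car12, which buffer pH at the cell surface, parted from each other. Car12 was at 6.68, 6.80, 6.88 and 6.94 in mutants 1 to 4, against 6.66, 6.73, 6.52 and 6.51 in controls 1 to 4. Control 2 lay above mutant 1, and the log2 change of 0.22 ± 0.08 (SE) did not pass (limma, adjusted p = 0.349). Between the control litters Car12 ran against the members as a whole, at −0.18 for litter 2 minus litter 1, while Car9 was at 0.18.

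Ddit4, an inhibitor of mTOR signalling that rises under stress, was at 8.43, 8.70, 8.42 and 8.55 in mutants 1 to 4, against 7.99, 8.29, 8.51 and 8.52 in controls 1 to 4. Ndrg1, a stress-responsive growth regulator, was at 8.83, 8.93, 8.99 and 8.98 in mutants 1 to 4, against 8.61, 8.49, 9.02 and 8.85 in controls 1 to 4. In both genes litter 1 was the low litter and the other 3 litters lay close together. The log2 changes were 0.20 ± 0.12 for Ddit4 (SE, limma, adjusted p = 0.669) and 0.19 ± 0.11 for Ndrg1 (adjusted p = 0.622). The collagen prolyl hydroxylases P4ha1 and P4ha2 and the oxidase of protein folding Ero1l varied little, with a range over the 8 embryos of 0.21 to 0.24 and no change between genotypes above 0.05. The histone demethylase Kdm3a and the Myc antagonist Mxi1 had log2 changes of 0.03 and 0.00.

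The larger pattern of the module was between litters. The variation of each gene over the 8 embryos was split into a part between genotypes, a part between litters of a genotype and a part between littermates, which hold 1, 2 and 4 degrees of freedom. The median member had 9.81% between genotypes, 50.6% between litters and 25.7% between littermates, and the medians over all genes were 13.0%, 31.1% and 44.5%. The litter part was larger than the genotype part in 28 of 35 members and in 67.8% of all genes. Slc2a1, Bnip3, Egln3 and Pdk1 had the largest litter parts, and Stc1 and Slc2a3 the largest genotype parts. Dimmer second probe sets of Slc2a1, Pdk1 and Ndrg1, with means of 6.56, 3.81 and 5.14, did not show the rise in litter 2. They gave −0.01, −0.12 and −0.01 for litter 2 minus litter 1, against 0.43, 0.36 and 0.38 in the brighter ones. The second probe sets of Car9, Mxi1 and Pgam1 did show it, at 0.21, 0.15 and 0.19.

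**Figure D2:**
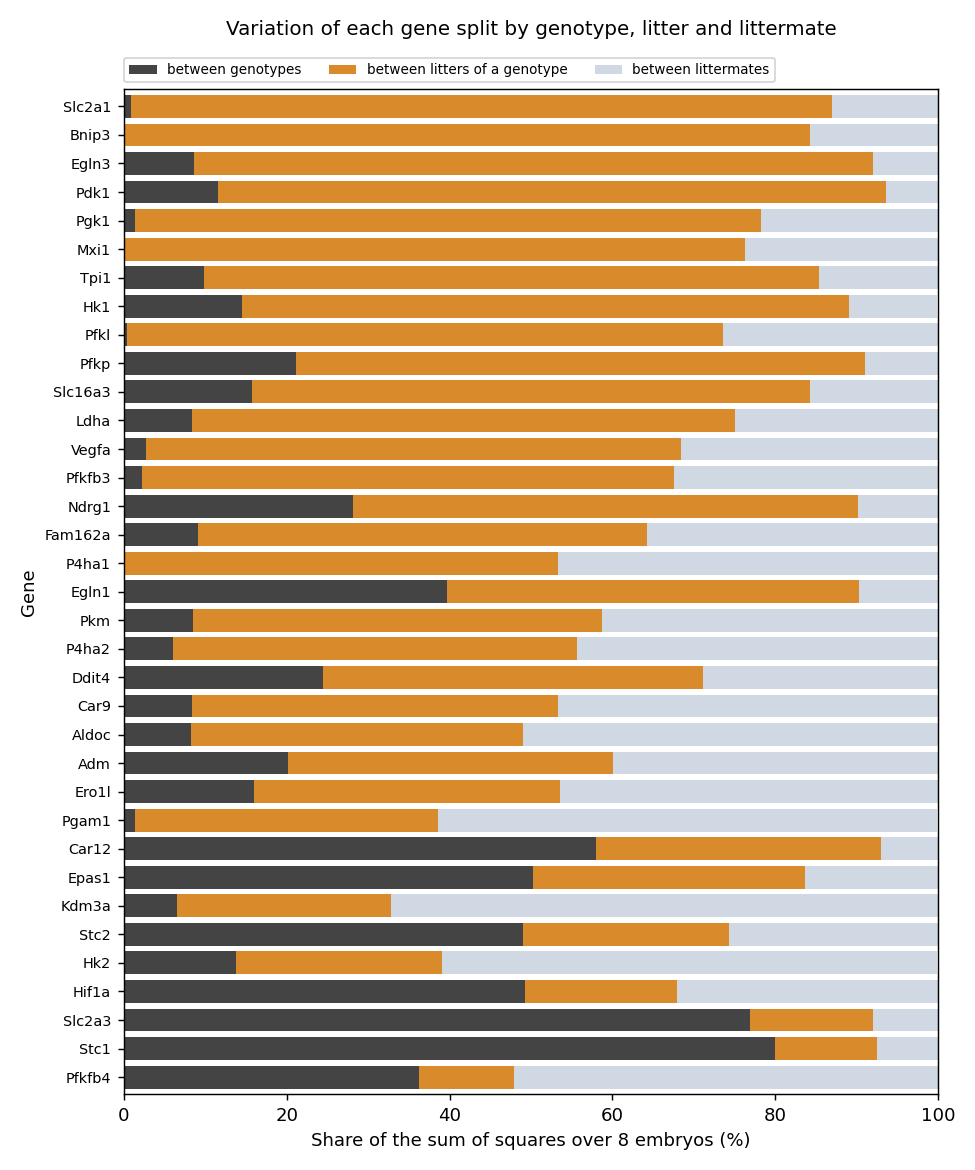
Share of the sum of squares over 8 embryos (x axis, %) between genotypes, between litters of a genotype and between littermates, for each of the 35 measured genes (y axis), ordered by the litter share. Litters take the longest part of the bar in the genes at the top, and genotype does so in Stc1 and Slc2a3 near the bottom.

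In the controls, litter 2 was above litter 1 without overlap in 23 of 35 members (65.7%), against 24.1% of all genes, and below it in 3 members (8.57%), against 17.6%. The 3 were Adm, Pfkfb3 and Car12. The median difference was 0.16 over the members and 0.01 over all genes, and 29 of 35 members were higher in litter 2, where 52.7% of all genes were. In the mutants, litter 4 was above litter 3 without overlap in 6 members (17.1%), against 24.9% of all genes, and below it in 13 (37.1%), against 20.0%. The median difference was −0.06 over the members and 0.01 over all genes. Of the 35 members 26 were lower in litter 4, where 53.6% of all genes were higher. Epas1, Hk1 and Ndrg1 were higher without overlap in both litter 2 and litter 4, and Epas1 was at 0.27 in each contrast.

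Each litter difference was also tested with limma over all genes, with 2 embryos a litter and after the values had been seen. No member passed an adjusted p under 0.05 in either contrast. Over all genes 6 (0.0271%) passed for litter 2 against litter 1, and 1 (0.00451%) for litter 4 against litter 3. The lowest adjusted p among members was 0.0761 for Egln3 (litter 2 minus litter 1) and 0.268 for Pdk1 (litter 4 minus litter 3). At an unadjusted p under 0.05, 16 members were higher and 1 lower in litter 2 than in litter 1, where 6.81% and 3.77% of all genes were. In litter 4 against litter 3, 1 member was higher and 5 were lower, where 8.07% and 3.66% of all genes were. Each litter gave 2 embryos, and littermates share a dam. These p-values therefore measure the spread between littermates and not that between litters.

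By embryo, the mean log2 deviation of the 35 members from each gene's own mean was 0.04, 0.11, 0.01 and −0.02 in mutants 1 to 4, against −0.18, −0.09, 0.06 and 0.07 in controls 1 to 4. Control 1 was the lowest of the 8 embryos for 19 of 35 members, and 10.1% of all genes were lowest there. Control 4 was the highest for 12 of 35 members, where 10.5% of all genes were highest. Control 3 was the highest for 8 of 35 members, close to its share of 21.2% over all genes. Within litter 1, control 2 was above control 1 in 28 of 35 members, with a median difference of 0.07, against 44.5% and −0.02 over all genes. The mean of the members spanned 0.281 over the 8 embryos, and 0.197 without control 1.

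**Figure D3:**
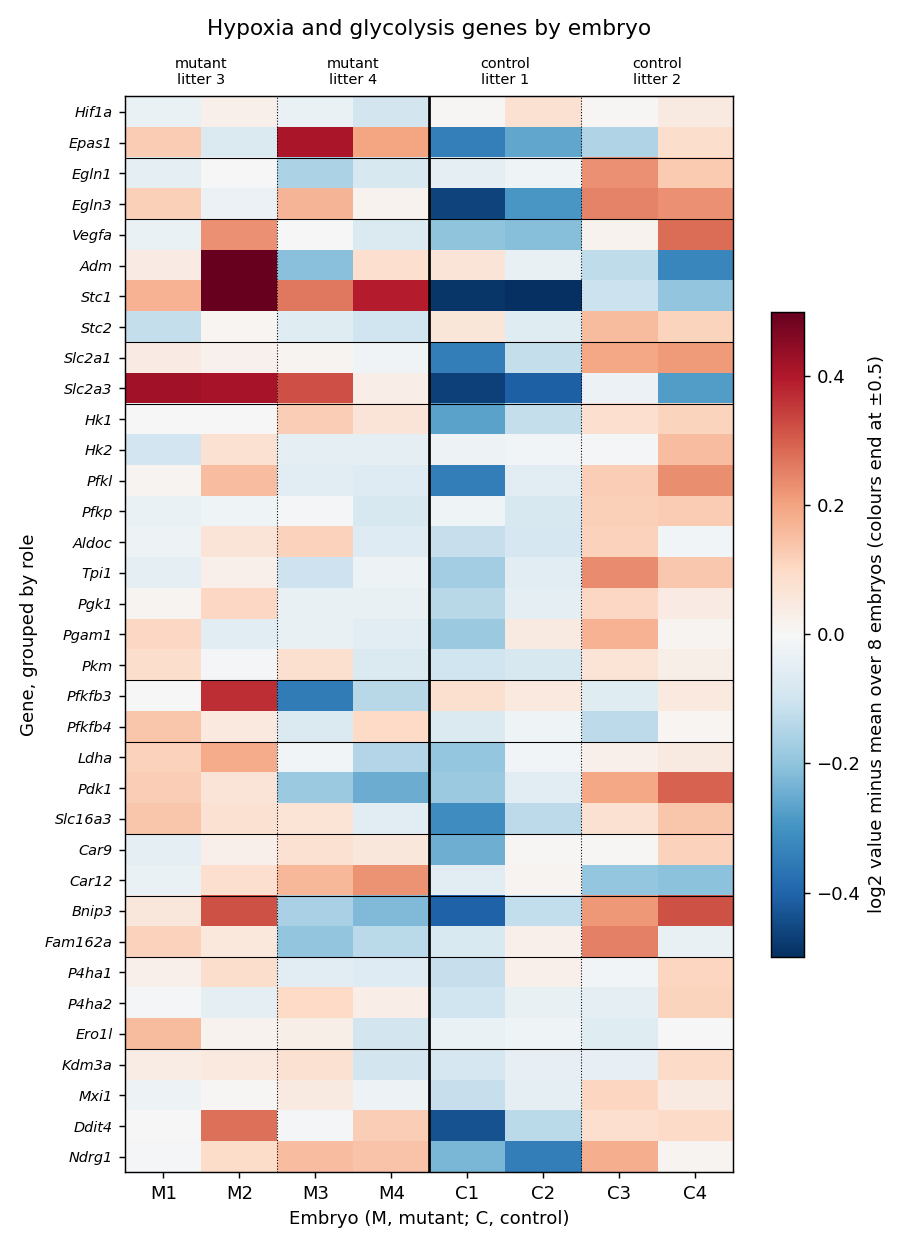
Log2 deviation of each of the 35 measured genes (rows, grouped by role) from its own mean over 8 embryos, in the 4 mutants and then the 4 controls (columns, littermates adjacent). Controls 1 and 2 are low for most rows and controls 3 and 4 high, and the largest values of the mutants are those of Stc1, Slc2a3, Epas1, Adm and Pfkfb3.

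After the genotype means were subtracted, the 35 members had a mean pairwise Pearson r of 0.379 over 595 pairs, against 0.00751 over all pairs of the 22180 genes. Of the member pairs 81.3% were above 0 and 26.2% above 0.7, against 50.5% and 5.65% of all pairs. Co-variation of this size was also present in lists of other kinds, at a mean r of 0.371 for citrate cycle and respiratory chain genes, 0.35 for epithelial, 0.414 for endothelial, 0.658 for myeloid and 0.664 for lymphoid markers. These are descriptions over 8 embryos from 4 litters, and littermates share a dam and a collection. Without control 1 the mean r was 0.274, and with the litter means subtracted instead it was 0.159, against 0.00515 over all genes. The highest pairs, each at 0.96, were Epas1 with P4ha2, Egln3 with Slc2a1, Pfkl with Bnip3, and Egln1 with Tpi1. The lowest was Epas1 with Adm at −0.94, where Adm was near the limit for dim genes and below it in some embryos.

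Against the mean of the other members, 27 of 35 had an r above 0.5 and 13 above 0.8. Pfkl (0.97), Bnip3 (0.96), Pgk1 (0.95), Slc16a3 (0.93), Slc2a1 (0.92) and Tpi1 (0.92) followed the rest most closely. Car12 (−0.72), Adm (−0.19) and Pfkfb4 (−0.02) were below 0. Hif1a itself was at 0.30 and Epas1 at 0.26. Outside the list, and again with genotype means subtracted from the genes and from the member mean, the named genes most like the member mean over the 8 embryos were Fgfbp1 (r = 0.988), Stard5 (0.982), Maob (0.971), Pcmt1 (0.966), Slc38a3 (0.964), Arhgap18 (0.963), Wdr47 (0.959), Slc18b1 (0.958), Snx4 (0.958) and Zfp790 (0.955), picked as the highest of all genes tested. Likeness on this scale leaves out the difference between genotypes: Maob had a log2 change of −0.53 (limma, adjusted p = 0.0508), where the median of the members was 0.03.

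The promoters of the closest followers are printed with that of Car12, the member that ran most against the rest, because HIF binds a short core element in such regions. Each sequence is the 250 bases before the gene start, 5′ to 3′ on the strand of the gene, from RefSeq on GRCm38.p6. Capitals mark ACGTG or GCGTG, or their reverse complements CACGT and CACGC, with overlapping matches run together. Intervals are chr10:78009808-78010057 (minus strand) for Pfkl, chr7:138909507-138909756 (minus) for Bnip3, chrX:106186850-106187099 (plus) for Pgk1, chr11:120948817-120949066 (plus) for Slc16a3, chr4:119108495-119108744 (plus) for Slc2a1, chr6:124814159-124814408 (minus) for Tpi1 and chr9:66713436-66713685 (plus) for Car12.
Pfkl: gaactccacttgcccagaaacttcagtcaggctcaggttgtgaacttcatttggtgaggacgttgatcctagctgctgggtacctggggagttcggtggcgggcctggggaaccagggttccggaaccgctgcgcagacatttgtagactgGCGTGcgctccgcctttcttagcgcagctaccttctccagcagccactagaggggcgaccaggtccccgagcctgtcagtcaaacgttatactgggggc
Bnip3: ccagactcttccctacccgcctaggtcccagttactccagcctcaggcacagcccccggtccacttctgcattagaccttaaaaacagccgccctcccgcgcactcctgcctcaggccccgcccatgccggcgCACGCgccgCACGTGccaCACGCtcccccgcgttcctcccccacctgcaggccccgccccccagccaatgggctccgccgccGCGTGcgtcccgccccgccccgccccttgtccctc
Pgk1: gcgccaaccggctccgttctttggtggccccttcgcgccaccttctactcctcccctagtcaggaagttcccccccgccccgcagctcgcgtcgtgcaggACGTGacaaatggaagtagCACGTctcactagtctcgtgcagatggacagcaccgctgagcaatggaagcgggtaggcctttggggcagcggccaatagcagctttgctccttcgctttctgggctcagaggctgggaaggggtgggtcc
Slc16a3: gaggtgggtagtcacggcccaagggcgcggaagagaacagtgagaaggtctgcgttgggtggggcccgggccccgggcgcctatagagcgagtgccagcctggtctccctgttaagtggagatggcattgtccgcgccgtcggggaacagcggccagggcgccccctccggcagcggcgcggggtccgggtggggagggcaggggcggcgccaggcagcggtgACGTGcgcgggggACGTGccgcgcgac
Slc2a1: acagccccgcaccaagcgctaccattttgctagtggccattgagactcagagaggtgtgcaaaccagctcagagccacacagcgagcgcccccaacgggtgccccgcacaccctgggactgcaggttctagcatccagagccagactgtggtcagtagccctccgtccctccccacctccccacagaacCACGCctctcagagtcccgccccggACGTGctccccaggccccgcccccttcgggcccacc
Tpi1: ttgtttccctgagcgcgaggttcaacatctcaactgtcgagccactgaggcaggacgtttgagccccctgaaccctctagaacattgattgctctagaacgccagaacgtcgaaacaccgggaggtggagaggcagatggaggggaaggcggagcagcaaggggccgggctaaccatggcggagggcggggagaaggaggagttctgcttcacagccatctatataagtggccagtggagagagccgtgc
Car12: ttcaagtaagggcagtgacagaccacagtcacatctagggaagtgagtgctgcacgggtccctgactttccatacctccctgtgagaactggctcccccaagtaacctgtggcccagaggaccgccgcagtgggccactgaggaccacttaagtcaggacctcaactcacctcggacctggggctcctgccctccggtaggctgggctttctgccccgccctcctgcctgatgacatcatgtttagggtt

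Bnip3 held 4 marked stretches, starting at −117, −108, −99 and −35 from the gene start, and the one at −108 was the palindrome CACGTG. Pgk1, Slc16a3 and Slc2a1 held 2 each, Pfkl held 1 at −99, and these letters were not in the windows of Tpi1 and Car12. A promoter window was matched for 31 of the 35 measured members, with Stc1, Slc2a3, Epas1 and Ndrg1 the other 4. Of the 31 genes, 29 (93.5%) held ACGTG or GCGTG on either strand in at least 1 window, against 41.5% of the 27025 genes in the table. By window the shares were 78.6% of 42 for the members and 38.6% of 32851 for the table. The member windows also had a median GC content of 62.8% and 15 CG pairs, against 52.4% and 6 in the table, and the part of base composition in the difference was not tested. The list was made in part of known HIF targets, so these shares are not independent evidence of HIF control. A match is a description of letters and not of binding.

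Other genes of the pathway were read from lists chosen with earlier results of these data known. Of 15 measured genes of the oxygen-sensing machinery none passed in either direction, with a median log2 change of −0.02. Hif3a had the largest at 0.19, and Vhl, which encodes the ligase that recognises hydroxylated HIF, was at −0.14. None of 37 other HIF targets passed (median 0.01), where Mif was at −0.28 and Insig2 at −0.25. None of 31 further glycolysis and pyruvate genes passed (median 0.01), with Galm at 0.26 and Pgm2 at −0.25. None of 22 genes of the citrate cycle and respiratory chain passed (median −0.03). Of 16 measured genes of the ATF4 and amino acid stress response, Sesn2 alone rose, by 0.47 ± 0.08 (SE, limma, adjusted p = 0.02), with a median of −0.01 for the list. The other HIF targets had a median of 0.12 for litter 2 minus litter 1 and of about 0 for litter 4 minus litter 3, and their mean pairwise r was 0.153. In the 31 further glycolysis and pyruvate genes the litter pattern was weaker. Their median was 0.05 for litter 2 minus litter 1 and about 0 for litter 4 minus litter 3, with a mean pairwise r of 0.0638.

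Marker lists of the cell types in the lung were set beside these values. The mean deviation of 15 epithelial markers was −0.04, −0.05, −0.02 and 0.01 in mutants 1 to 4, against −0.05, −0.08, 0.11 and 0.13 in controls 1 to 4. The mean of 10 endothelial markers was 0.01, 0.01, 0.08 and 0.04 in mutants, against −0.11, −0.09, 0.02 and 0.05 in controls. Both lists were thus lower in litter 1 and higher in litter 2, as the hypoxia and glycolysis genes were, with medians of 0.19 and 0.15 for litter 2 minus litter 1, and their part in the litter difference was not tested. In the mutants the median for litter 4 minus litter 3 was 0.03 in both lists, where that of the hypoxia and glycolysis genes was −0.06. No marker of the epithelium, mesenchyme or endothelium passed between genotypes. Some genes of the other marker lists did pass. The oesophagus list had 2 of 3 genes higher in mutants, Krt4 and Pax9. The mesothelial gene Upk1b was higher by 0.46 (limma, adjusted p = 0.0102), the smooth muscle gene Cnn1 fell by 0.46 (adjusted p = 0.0366) and Ret, of the neuron and neural crest list, fell by 0.43 (adjusted p = 0.0132). The mean deviation of the 7 smooth muscle genes was −0.23 to −0.02 in mutants and 0.05 to 0.19 in controls, so these means did not overlap. Cnn1 and Actg2 (−0.41) had the largest changes of that list, where the median was −0.2. The mean of the 5 mesothelial genes was 0.03 to 0.12 in mutants and −0.13 to about 0 in controls, also without overlap. That list had a median change of 0.08, with Upk1b and Msln (0.17) the largest, so the means do not speak for every gene. The part of these tissues in the rise of Stc1 and Slc2a3 was not tested. The myeloid list was higher in litter 4 than in litter 3 by a median of 0.43. None of 7 erythroid, 16 immediate early or 8 heat shock genes passed between genotypes.

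**Figure D4:**
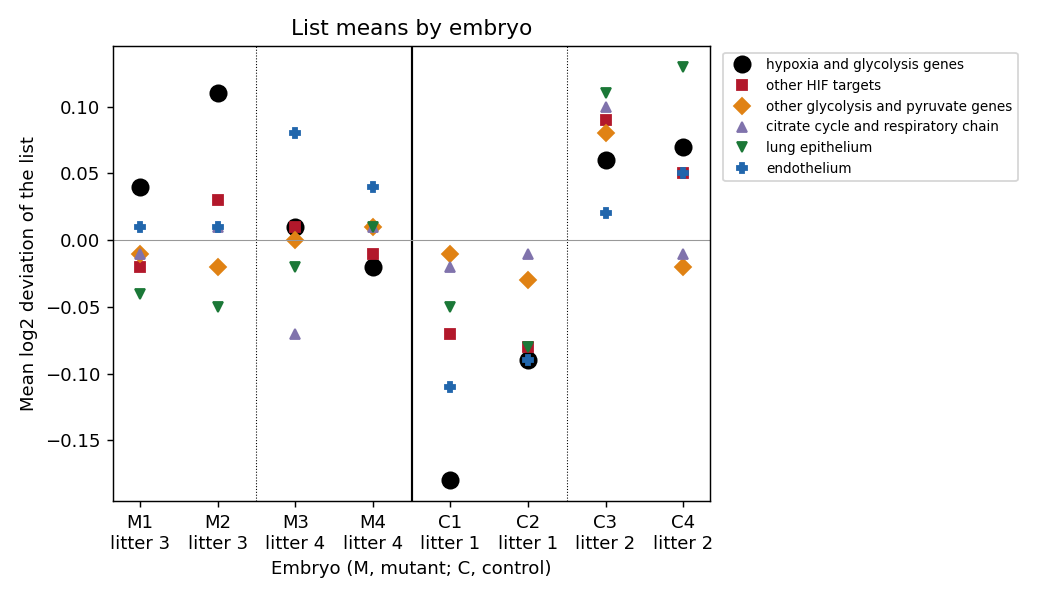
Mean log2 deviation (y axis) of the hypoxia and glycolysis genes and of lists of other HIF targets, other glycolysis genes, respiratory genes and cell type markers, in each of the 4 mutants and 4 controls (x axis). The hypoxia and glycolysis genes reach 0.11 in mutant 2 and −0.18 in control 1, and the epithelial and endothelial lists are also low in controls 1 and 2.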

How the data were processed

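RNA from 8 whole lungs was hybridised to 1-colour Affymetrix arrays, with 100 ng of RNA per the labels' protocols. The authors deposited log2 intensity values for 41345 probe sets. RMA, oligo and limma are named in the submitters' processing notes, without versions. Of these probe sets, 23521 name 1 gene, 1814 name several and 16010 none in the platform annotation, and the 22180 single names were each read from the probe set with the highest mean.

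Mutants were compared with controls in limma 3.58.1 (R 4.3.3), where litter entered as a random block with a consensus correlation of 0.1533, and Benjamini-Hochberg adjustment over all 22180 genes. The embryo numbers in the titles did not pair the samples: the correlations of same-numbered deviations were −0.2299, −0.0488, −0.2718 and 0.02694. Litters came from the study's design text. The code was tested on simulated data. Values in every embryo are given for members past the threshold, the 8 with the largest change, the 8 with the largest range and 7 central genes of the pathway. From each further list the genes past the threshold and the 2 largest changes could be named, and outside the lists the 10 genes most like the member mean, without predicted genes and small RNAs. The members and lists were chosen with earlier results of these data known. Alternatives covered the block, left-out embryos and litters, dim genes, scaling, probe set choice, variance prior, array weights, Xist and the threshold. Replicates are separate embryos. The p-values between genotypes measure the spread between these embryos of 4 litters, with the same litter correlation used for every gene. The p-values between litters measure the spread between littermates.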

Additional observations from a re-analysis of the deposited data

Results flagged for a closer look

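Over 72 groups of 4 values, 2 held an embryo far from the other 3 of its genotype, where chance gives about 1 in 20, or 3.6. Hk2 in control 4 was at 8.74, above the other controls at 8.56 to 8.58. Pgam1 in mutant 1 was at 11.01, above the other mutants at 10.85 to 10.87.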

How the results depend on the processing

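Every fit that left out a litter also dropped the litter block, so those values change 2 choices together. The count of 2 members higher in mutants was 0 with litter means and in the fits without litter 1 or litter 3, and 1 with the replicate block, in the fit without litter 4 and with arrays centred on their medians. Leaving out 1 embryo gave 0 to 2. No member was lower in any setting. Of all genes, 134 rose, and 65 did with litter means, 75 without litter 4, 361 with Xist as a covariate and 73 to 157 with 1 embryo left out. Of all genes, 55 fell, and 33 did with litter means, 23 without litter 4, 90 without litter 1, 95 with all litters and no block, 313 with Xist as a covariate, 96 at a threshold of 0.10 and 28 to 75 with 1 embryo left out. The replicate block gave 140 higher and 55 lower genes. The cause was not tested.

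The mean pairwise r of 0.379 was 0.469 with arrays centred, 0.375 with the mean of probe sets and 0.274 to 0.408 with 1 embryo left out. The range of the member mean, 0.281, was 0.296, 0.271 and 0.197 to 0.281 in the same settings. The median littermate share of 25.7% was 22.1% with arrays centred and 26.5% with the mean of probe sets. Of 840 changes of a member under an alternative, 75 had a changed sign, none of them past the threshold. All 35 members were above the limit for dim genes. Litter and genotype, and litter and Xist among controls, limit what 4 litters can show.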
